A study of Mus musculus with 14 samples.

Results

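Oligodendrocyte precursor cells (OPCs) of the mouse brain were described here from single-nucleus RNA sequencing of vascular fragments, as the nuclei that carry the authors' cell type label OPCs. There were 608 such nuclei among 31324 labelled brain nuclei, 400 of 16649 in the control library and 208 of 14675 in the library of *Tgfbr1* conditional knockout mice (CKO). The study asks what follows from loss of TGF-beta signaling in endothelial cells (ECs), and its brain samples are 1 library per genotype, each made from the fragments of 2 brains. The CKO mice carry VEcadCreER (*Cdh5CreER* in the paper) with *Tgfbr1 CKO/-*, and Cre was activated by 4-hydroxytamoxifen given from day 3 through day 5 after birth. Controls are labelled wild type, and the paper calls such mice phenotypically wild type. For its control retinas the paper names *Cdh5CreER* with *Tgfbr1 CKO/+* or with *Tgfbr2 CKO/+* as the usual alleles, while those of the brain controls, and whether they received 4-hydroxytamoxifen, are not stated. The mice were at postnatal day 14, although the labels say young adult. Cre in this line is driven in ECs, so OPCs are not the cells in which Cre deletes the gene. The minus allele of *Tgfbr1 CKO/-* is a null allele in all cells, so CKO OPCs carry it too. Fragments were pelleted through Ficoll and held back on a 20 µm filter to enrich vessels, and nuclei were captured with the PIPseq v4.0 PLUS kit, which counts transcripts by unique molecular identifiers (UMIs) near their 3′ ends.

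OPCs descend from neural progenitors, spread through gray and white matter, and keep dividing after birth while some of them differentiate into myelinating oligodendrocytes. They depend on platelet-derived growth factor through the receptor PDGFRA, carry the proteoglycan NG2 (*Cspg4*), receive synaptic input through glutamate receptors, and often sit against blood vessels. The transcription factors OLIG2 and SOX10 specify the lineage and remain in its mature cells.

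All values are UMIs summed over the OPC nuclei of a library and divided by the library's OPC total, in counts per 1000000 (CPM), and a ratio is the CKO CPM over the control CPM. With 1 library per genotype there was no replicate spread and no test: every difference below compares the libraries, not the genotypes, and the 95% intervals (exact binomial for shares, exact conditional binomial for ratios) cover counting error only. The control OPC nuclei held 520679 UMIs and the CKO OPC nuclei 208842. A control OPC nucleus had a median of 986 UMIs (range 348 to 7293) from a median of 448.5 genes, and a CKO OPC nucleus 616.5 UMIs (297 to 8792) from 321 genes. The order of the gene counts turned at equal depth. At 500 UMIs drawn at random per nucleus, the median was 290 genes in control and 316 in CKO. The libraries share 2 cell barcodes, and 0 of those belong to an OPC nucleus.

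**Figure D1:**
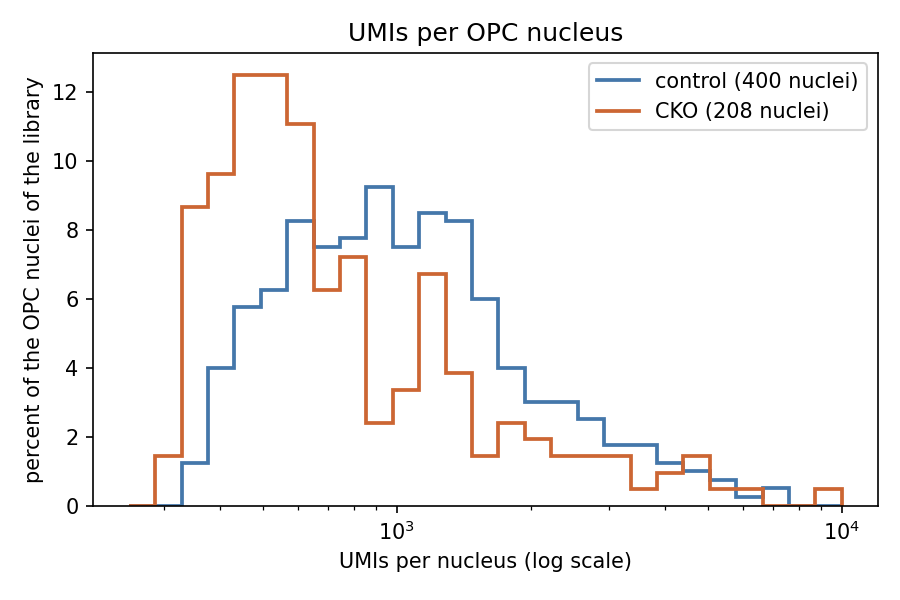
UMIs per OPC nucleus on a log scale against the percent of the OPC nuclei of each library, as step histograms for control (400 nuclei) and CKO (208 nuclei). The CKO nuclei lie at lower depth, with medians of 616.5 against 986 UMIs.

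The label was first set against marker genes. *Pdgfra*, *Olig2*, *Vcan*, *Lhfpl3*, *Pcdh15* and *Tnr* had their highest level among the 21 labelled cell types in OPCs in both libraries. *Sox10* ranked first in control OPCs and second in CKO OPCs, behind oligodendrocytes, where it is also expressed. *Cspg4* ranked second to pericytes, the other brain cells that make NG2, and *Ptprz1* second to astrocytes. *Pdgfra* stood at 1064 CPM in control OPCs and 790 CPM in CKO OPCs, a ratio of 0.743 (95% interval 0.620 to 0.885), and *Cspg4* at 503 and 354 CPM, a ratio of 0.704 (0.536 to 0.915). *Olig2*, at 117 and 134 CPM, had a ratio of 1.14 (0.704 to 1.82). *Sox10* stood at 453 and 388 CPM (ratio 0.856, 0.656 to 1.11). Both intervals of these transcription factors span 1. Without the nuclei of at least 2 granule neuron markers the ratio of *Olig2* was 1.77 (1.02 to 2.95), that of *Sox10* 1.09 (0.783 to 1.49) and that of *Cspg4* 0.966 (0.700 to 1.31).

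UMIs of at least 1 of these 4 markers were found in 343 of 400 control OPC nuclei (85.8%, 95% interval 81.9 to 89.0%) and in 154 of 208 CKO OPC nuclei (74.0%, 67.5 to 79.9%). UMIs of at least 2 of the 4 were found in 55.5% (50.5 to 60.4%) of control and 32.7% (26.4 to 39.5%) of CKO OPC nuclei. Among all other brain nuclei, at median depths of 1574 and 1412 UMIs, the share with at least 2 was 1.43% in control and 0.615% in CKO. Depth enters these shares. With each nucleus thinned to 500 UMIs, a step chosen after seeing the data, at least 2 of the 4 were found in 29.1% (24.4 to 34.1%) of control and 21.6% (15.1 to 29.4%) of CKO OPC nuclei, with intervals that overlap, and in 0.508% and 1.35% of oligodendrocytes. Of the 90 CKO OPC nuclei with at least 2 of the granule neuron markers described below, 22.2% had at least 2 of the 4, against 40.7% of the other CKO OPC nuclei. In control OPC nuclei these shares were 50% and 56.8%. The label thus held in both libraries as a group of nuclei, though not equally in each nucleus.

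OPCs made up 2.40% (2.18 to 2.65%) of the control nuclei and 1.42% (1.23 to 1.62%) of the CKO nuclei. Both shares come from a preparation enriched for vessels, so they are shares of the captured nuclei and not of the brain. Among nuclei with at least 1000 UMIs the shares were 1.85% and 0.650%, since 197 control OPC nuclei but 58 CKO OPC nuclei reached that depth. ECs made up 14.9% of the control nuclei and 20.1% of the CKO nuclei.

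*Tgfbr1*, the deleted gene, had 46 UMIs in control OPCs and 10 in CKO OPCs, or 88.3 and 47.9 CPM, with a ratio of 0.542 (0.244 to 1.09), or of 0.981 (0.330 to 2.44) without the nuclei that hold at least 2 of the granule neuron markers described below. This value does not check the deletion by Cre, since Cre acts in ECs and the 3′ tags can lie outside the deleted part of the gene. The minus allele of the CKO mice is present in OPCs as well. In ECs themselves *Tgfbr1* stood at 69.1 CPM in control and 62.9 CPM in CKO, a ratio of 0.910 (0.792 to 1.05). *Tgfbr2*, which encodes the receptor that binds TGF-beta first and recruits TGFBR1, had 3 UMIs in control OPCs and 0 in CKO OPCs, so no difference was detectable at this depth.

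The comparison of OPCs between the libraries had genes on both sides. The control library was higher in a set of genes of few UMIs per nucleus in OPCs. Apart from *Xist*, the lowest ratios were those of *Gm2824*, *Prkd3*, *Zfp36l1*, *1110004F10Rik* and *Ptpn14*. More abundant genes such as *Edil3*, *Epha5*, *Khdrbs2* and *Dpp10* were also higher in control. The CKO library was higher in *Lingo2*, *St3gal5*, *Il16* and *Srcin1* and in markers of cerebellar granule neurons. The genes that define OPCs were mostly lower in the CKO library, by less than 2-fold in nearly all cases, and their sum was not lower once nuclei with at least 2 granule markers were left out.

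Of 13322 genes with a UMI in OPC nuclei, 1996 had at least 50 UMIs over both libraries and were compared by the size of their ratio. At a ratio of at least 2, 208 genes were higher in CKO (10.4% of those compared), and at a ratio of at most 0.5, 212 were higher in control (10.6%). Past 4-fold, 5 genes were higher in CKO and 47 in control. The median log2 ratio over all 1996 genes was 0.04, with a 5th percentile of -1.49 and a 95th percentile of 1.27. Nuclei of other types, thinned by random draw to the OPC totals and counted in the same way, give a scale for these counts. Oligodendrocytes had 0.961% of 1873 genes higher in CKO and 11.9% higher in control. Astrocytes had 2.66% and 9.73% of 1880 genes, and ECs, the cells in which Cre acts, 3.94% and 4.34% of 3275 genes. The neurons labelled Glut_0 had 0.558% and 2.18% of 2152 genes. The share of genes higher in CKO was thus larger in OPCs than in any of these 4 types, whereas the share higher in control lay within their range.

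Among the genes lower in the CKO library, 4 had no UMI there. *Xist*, the RNA that coats the inactive X chromosome, had 2415 UMIs in control OPCs (4638 CPM), and its CKO level was at least 323-fold lower, taking 3 counts per library as the floor. In all other brain nuclei *Xist* was likewise lower in CKO, at 1935 CPM in control and 1.30 CPM in CKO. Y chromosome genes were higher in CKO: *Uty* stood at 53.8 CPM in control and 187 CPM in CKO OPCs (ratio 3.47, 2.08 to 5.86). *Eif2s3y*, an initiation factor gene on the Y chromosome, stood at 53.8 and 168 CPM (ratio 3.12, 1.84 to 5.32). *Kdm5d*, which encodes a histone demethylase, stood at 25 and 95.8 CPM, and *Ddx3y* had 0 and 5 UMIs. Without the nuclei of at least 2 granule markers the ratios were 2.34 (1.01 to 5.12) for *Uty*, 1.86 (0.647 to 4.78) for *Eif2s3y* and 1.06 (0.110 to 5.33) for *Kdm5d*, and *Ddx3y* had 0 and 1 UMIs. The libraries thus differ in sex chromosome transcripts as well as in genotype, and sex and genotype cannot be told apart here.

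The other genes without a UMI in CKO OPCs were *Gm2824*, *Prkd3* and *Zfp36l1*. *Gm2824*, a long noncoding RNA gene on chromosome 15, had 60 UMIs in 54 control nuclei, and its CKO level was at least 8.02-fold lower. *Prkd3*, which encodes a protein kinase D, had 55 UMIs in 51 control nuclei and was at least 7.35-fold lower. *Zfp36l1*, whose protein binds AU-rich elements and speeds the decay of messenger RNAs, had 51 UMIs in 43 control nuclei and was at least 6.82-fold lower. In all other brain nuclei the ratios of these genes were 0.821, 1.14 and 1.31, but in astrocytes *Prkd3* had a ratio of 0.401 (0.153 to 0.894) and *Zfp36l1* 0.206 (0.0917 to 0.404). Without a limit on UMIs over both libraries, 9 genes had at least 30 UMIs in control OPCs and 0 in CKO OPCs, the 4 above and *Adra1a*, *C1ql3*, *Rassf2*, *Abhd2* and *Mmp15*, named after their values were seen. All 9 had UMIs in other CKO nuclei, where their median ratio was 1.12. No gene with at least 12 UMIs in CKO OPCs was at 0 in control OPCs.

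Further genes at this end had 1 to 8 UMIs in CKO OPCs. *Pdzrn4*, which encodes a PDZ domain protein with a RING finger, went from 239 UMIs in 152 control nuclei to 8 UMIs in 7 CKO nuclei, 459 against 38.3 CPM (ratio 0.0835, 0.0356 to 0.167). *Stard9*, a kinesin gene, went from 123 to 5 UMIs (ratio 0.101, 0.0323 to 0.243). *B3gat1*, whose enzyme makes the HNK-1 sugar epitope of neural adhesion molecules, went from 94 to 3 UMIs (0.0796, 0.0161 to 0.240). *Ptpn14*, a tyrosine phosphatase gene, had 83 and 1 UMIs (0.0300, 0.000752 to 0.172). The remaining genes of the 15 lowest ratios were *1110004F10Rik*, *Vstm2b*, *Msrb3*, *Gm48091*, *Ankfn1*, *Tmem196* and *Tdrd7*, each with 1 to 3 UMIs in CKO OPCs. *1110004F10Rik* lies on chromosome 7 on the strand opposite the OPC gene *Sox6*, which itself had a ratio of 0.744 (0.682 to 0.811), and *Gm48091* overlaps the adhesion gene *Opcml* in the same manner, which had a ratio of 0.774 (0.734 to 0.817).

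The 212 genes higher in control had a median of 1.2 UMIs per control nucleus with a UMI, against 1.31 over all genes compared. In the pool of all other nuclei their ratio had a median of 1.02, and 4 of them were also past 2-fold higher in control. In oligodendrocytes their median ratio was 0.684, beside 0.757 over all 1996 genes, and 82 of the 212 were past 2-fold higher in control, as were 551 of the 1996. In astrocytes the median was 0.953, and 46 of the 212 were past 2-fold higher in control, as were 192 of the 1996. Of the 15 lowest, 14 had a ratio between 0.5 and 2 in the pool of other nuclei, and the exception was *Xist*. Single types differed from the pool: *Stard9* had a ratio of 0.0499 (0.0102 to 0.149) in oligodendrocytes and 0.105 (0.0375 to 0.239) in Glut_0 neurons, and *Msrb3* and *Ptpn14* had 0.0590 and 0.351 in Glut_0 neurons. Other genes ran the opposite way, with *Vstm2b* at 2.77 (2.31 to 3.34) in ECs and *Ankfn1* at 6.29 (1.44 to 37.7) in astrocytes. *Pdzrn4* stood at 0 CPM in control and 34.3 CPM in CKO Glut_5 neurons.

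Apart from *Xist*, 4 genes with many UMIs among those higher in control were chosen with their values in view, as examples with deep counts. *Khdrbs2*, a splicing regulator gene of the nervous system, stood at 1079 CPM in control and 383 CPM in CKO OPCs (ratio 0.355, 0.277 to 0.449), and was seen in 247 and 50 nuclei. *Dpp10*, an auxiliary subunit of Kv4 potassium channels, stood at 1031 and 326 CPM (0.316, 0.242 to 0.407). *Pde7b*, a phosphodiesterase gene for cyclic AMP, stood at 985 and 354 CPM (0.360, 0.278 to 0.460). *Tafa2*, which encodes a secreted protein resembling chemokines, stood at 976 and 316 CPM (0.324, 0.247 to 0.419). In nuclei with 0 or 1 granule marker, described below, the ratio of *Dpp10* was 0.137 (0.0676 to 0.248) and the other 3 had ratios from 0.391 to 0.441. In all other brain nuclei the ratios of these 4 genes lay between 1.01 and 1.13. In oligodendrocytes they were 0.487 (0.308 to 0.745) for *Khdrbs2*, 0.802 for *Dpp10*, 0.710 for *Pde7b* and 2.56 (1.64 to 3.99) for *Tafa2*, and in astrocytes 0.866, 1.06, 0.843 and 0.786 in the same order.

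At the other end, *Lingo2* had the highest ratio. This gene of a leucine-rich repeat membrane protein of neurons and glia stood at 23.0 CPM in control and 359 CPM in CKO OPCs (ratio 15.6, 8.42 to 31.5). Its 75 CKO UMIs came from 15 nuclei, with 16 in a single nucleus, and with each nucleus weighted equally the ratio of *Lingo2* was 6.56. *St3gal5*, the synthase of ganglioside GM3, stood at 26.9 and 192 CPM (7.12, 3.79 to 14.2), with a ratio of 15.3 in thinned nuclei. *Il16*, which encodes the precursor of interleukin 16, stood at 44.2 and 230 CPM (5.20, 3.10 to 8.96), with a ratio of 2.59 in nuclei with at least 2 of 4 markers. *Srcin1*, a gene of an adaptor that restrains Src, stood at 71.1 and 321 CPM (4.51, 2.98 to 6.94), with a ratio of 17.8 in thinned nuclei. *Jph4*, a junctophilin gene that ties the endoplasmic reticulum to the cell membrane, stood at 36.5 and 163 CPM (4.46, 2.47 to 8.28). The alternative setting quoted differs from gene to gene, and the values 17.8 and 2.59 are extremes. Over the 15 highest genes the ratios ran from 4.14 to 17.8 when thinned and from 2.59 to 21.1 with at least 2 of 4 markers. With nuclei weighted equally they ran from 3.64 to 17.3.

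The next genes by ratio lay below 4-fold. *Rapgef4*, the exchange factor gene EPAC2 that answers to cyclic AMP, stood at 61.5 CPM in control and 244 CPM in CKO OPCs (ratio 3.97). *Cnksr3* stood at 51.9 and 206 CPM (3.97), and *Rock2*, a kinase gene of the actomyosin cytoskeleton, at 46.1 and 182 CPM (3.95). *Kcnk1*, a leak potassium channel gene, stood at 49.9 and 187 CPM (3.74). *Lhfp*, with the most UMIs of this end, stood at 154 and 575 CPM (3.74, 2.79 to 5.03), in 45 control and 57 CKO nuclei. The others of the 15 highest were *Mtch2*, *Ror1*, *Crtc3*, *Nhsl2* and *Cd47*, with ratios from 3.49 to 3.85. In the pool of all other brain nuclei none of the 15 was past 2-fold higher in CKO, and *Il16* had a ratio of 0.310 there. In single types *Lingo2* (11.1) and *Rock2* (2.15, 1.48 to 3.07) were past 2-fold higher in CKO in the neurons labelled Glut_5 and *Nhsl2* (2.66, 1.89 to 3.74) in astrocytes.

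Many of the genes higher in CKO were abundant in Glut_5 neurons. Of the 208, 119 (57.2%) stood more than 2-fold higher in control Glut_5 neurons than in CKO OPCs, as did 290 (14.5%) of the 1996 genes compared and 10 of the 212 higher in control. This count was chosen after seeing the data. Both OPC levels enter the ratio: division by the CKO level lowers the count for genes higher in CKO, and division by the control level raises it. The latter gives 153 of 208, beside 371 (18.6%) of the 1996 and 0 of the 212. In control Glut_5 neurons *Lhfp* stood at 1867 CPM and *Il16* at 799 CPM. *Lingo2* stood at 17.6 CPM in control and 194 CPM in CKO Glut_5 neurons, a ratio of 11.1 (6.51 to 18.9). Of the genes of most UMIs in this direction, picked after their values were seen, *Cntnap2* stood at 1110 and 2375 CPM in OPCs (2.14, 1.89 to 2.42) and at 8394 CPM in control Glut_5 neurons. *Cntnap2* encodes a neurexin relative at axonal contacts. *Trpm3*, a cation channel gene, stood at 640 and 1494 CPM in OPCs (2.34, 2.00 to 2.73), and *Ppp3ca*, a calcineurin subunit gene, at 572 and 1293 CPM (2.26, 1.91 to 2.67).

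**Figure D2:**
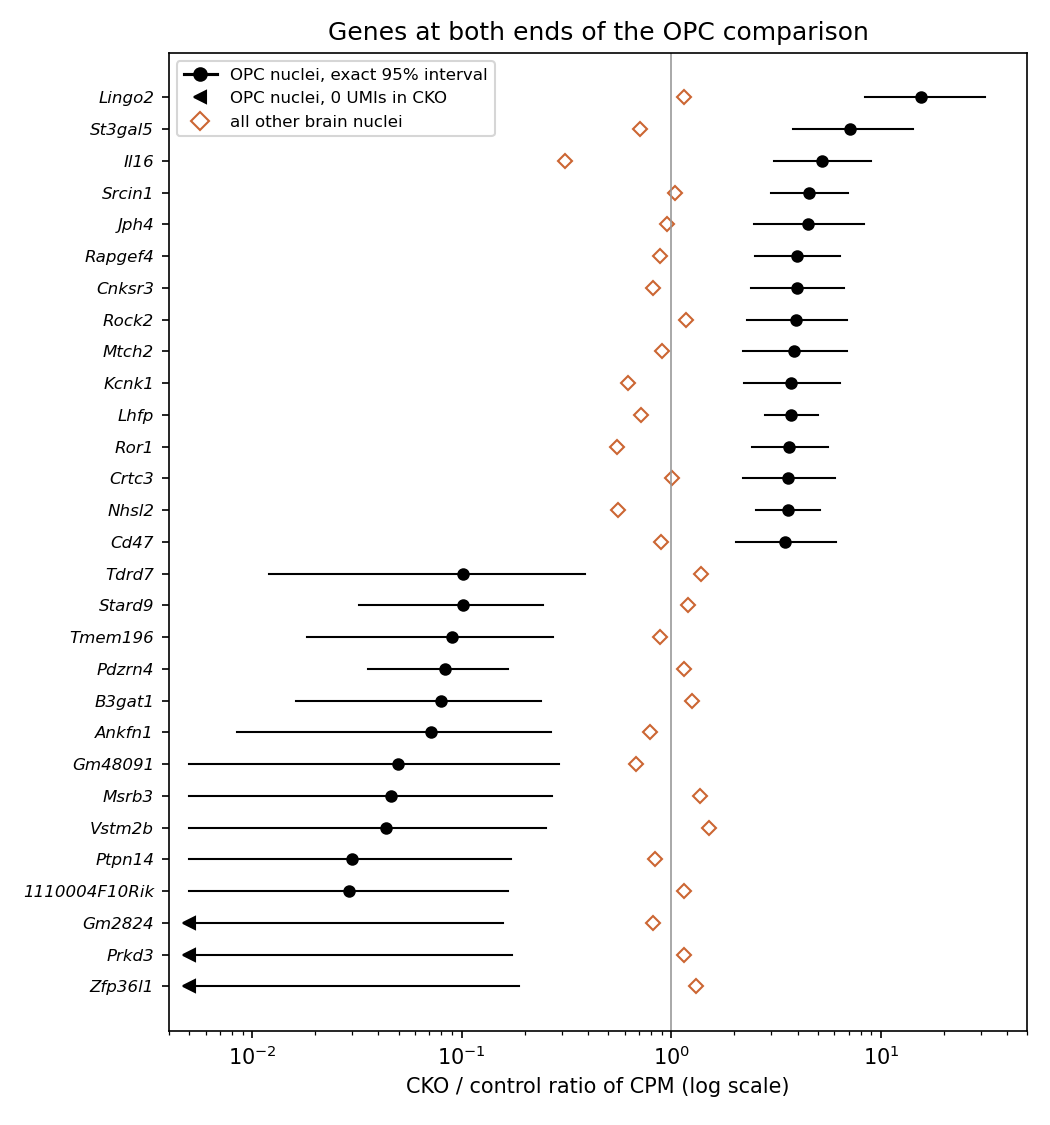
The 15 highest and, apart from *Xist*, the 14 lowest CKO over control ratios among genes with at least 50 UMIs in OPCs, on a log axis, with exact 95% intervals as lines (drawn down to 0.005), beside the ratio of each gene in all other brain nuclei as open diamonds. The OPC ratios lie above 3 or below 0.2, and all but 1 of the diamonds lie between 0.5 and 2.

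Markers of cerebellar granule neurons were higher in CKO OPCs. This list of 12 genes was written after the ratios had been seen, so its values only describe. All 12 had UMIs in the OPC nuclei of both libraries, with a summed level of 1815 CPM in control and 3941 CPM in CKO OPCs (ratio 2.17, 1.98 to 2.39). Its most abundant gene was *Cadps2*, a gene for dense-core vesicle priming, at 553 and 1207 CPM. *Gabra6*, the GABA receptor subunit typical of granule neurons, stood at 136 and 311 CPM (2.28, 1.60 to 3.24). In control Glut_5 neurons the list summed to 16194 CPM. In all other brain nuclei it went the other way, from 1289 to 682 CPM, and Glut_5 neurons were 1858 of the control nuclei and 251 of the CKO nuclei.

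UMIs of at least 2 granule markers were found in 78 of 400 control OPC nuclei (19.5%, 15.7 to 23.7%) and 90 of 208 CKO OPC nuclei (43.3%, 36.4 to 50.3%). With each nucleus thinned to 500 UMIs, which left out 46 control and 69 CKO nuclei, the shares were 12.4% (9.18 to 16.3%) and 45.3% (36.9 to 54.0%). At the same thinned depth the Glut_0 neurons had 4.07% and 2.15%, at unthinned median depths of 5004 and 2314 UMIs. Astrocytes had 7.06% and 12.8%, oligodendrocytes 3.73% and 0.17%, and ECs 2.43% and 1.15%. The share in OPCs was thus higher than in these other types in both libraries, and most of all in CKO. Doublets had been removed by the authors with SOLO and by hand.

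OPC nuclei with at least 2 granule markers were deeper, in part by construction, since a deep nucleus reaches 2 markers more readily. Their median depth was 2202.5 UMIs in control and 982.5 in CKO, against 866.5 and 500 in the OPC nuclei with 0 or 1. They held 199104 of the 520679 control UMIs and 133226 of the 208842 CKO UMIs. The OPC identity list summed to 34002 CPM in them in control and 31488 CPM in CKO, against 86375 and 88606 CPM in the nuclei with 0 or 1 granule marker. Their neuron markers summed to 5017 and 6140 CPM, against 302 and 714 CPM. The classes rest on markers that themselves differ between the libraries.

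The counts changed when nuclei with at least 2 granule markers were left out, a step chosen after seeing the data that keeps 322 control and 118 CKO nuclei. Of 1002 genes with at least 50 UMIs there, 60 (5.99%) were higher in CKO and 169 (16.9%) in control. Of the 208 genes higher in CKO in all OPC nuclei, 19 still had 50 UMIs and 16 of these were still past 2-fold. Of the 212 higher in control, 138 still had 50 UMIs and 116 of these were still past 2-fold. All 15 genes of lowest ratio remained past 2-fold, and *Pdzrn4* had 206 UMIs in control and 3 in CKO there (ratio 0.0619, 0.0127 to 0.184). Some of these had fewer than 50 UMIs there, such as *Zfp36l1* with 42 and 0. The 10 of the 15 highest that had a UMI in control there also remained past 2-fold, at ratios from 5.32 to 38.3. None of these 10 had 50 UMIs there, so the ratios are loosely set: *Mtch2* had 1 and 9 UMIs (38.3, 5.30 to 1678) and *Rock2* 4 and 5 (5.32, 1.14 to 26.8). The other 5 of the 15 highest, *Il16*, *St3gal5*, *Jph4*, *Kcnk1* and *Cd47*, had 0 UMIs in control and 1 to 5 in CKO. *Lingo2* had 4 and 19 UMIs (ratio 20.2, 6.71 to 81.6).

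**Figure D3:**
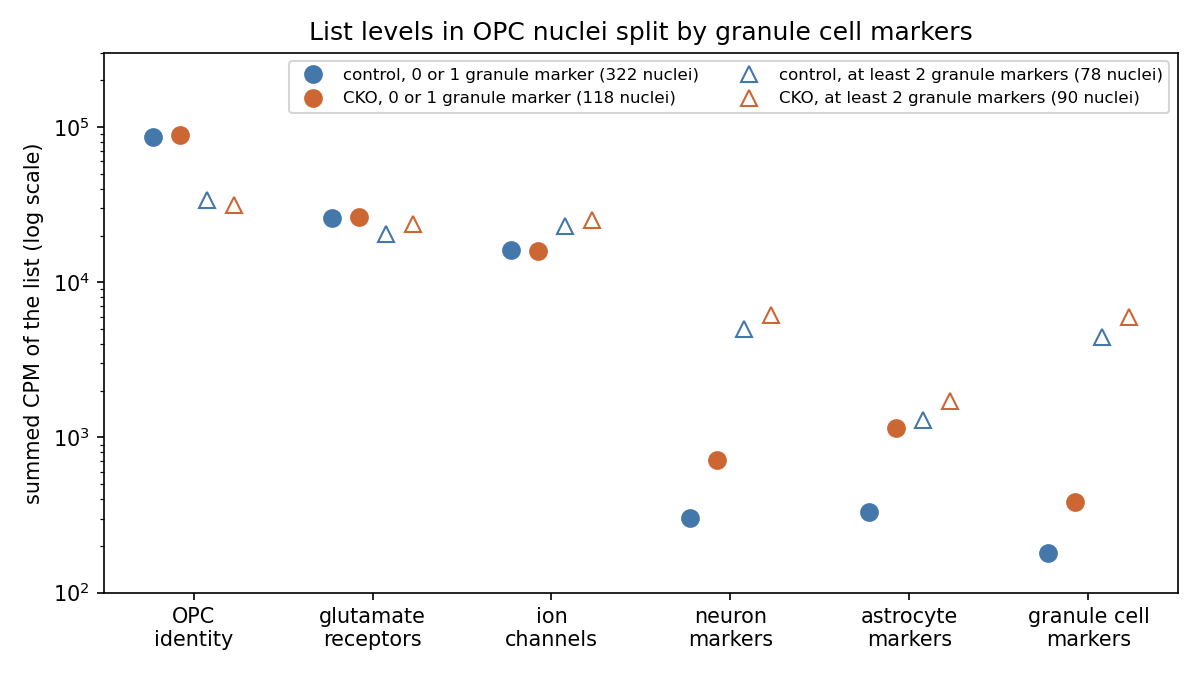
Summed CPM, on a log axis, of 6 gene lists in OPC nuclei of each library, split by whether a nucleus has UMIs of at least 2 granule markers (triangles) or of 0 or 1 (circles). The OPC identity list lies near 86375 and 88606 CPM in the circles and near 34002 and 31488 CPM in the triangles.

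Genes of OPC identity were mostly lower in the CKO library, though their sum was not once nuclei with at least 2 granule markers were left out. The 26 genes of this list summed to 66348 CPM in control and 52169 CPM in CKO OPCs (ratio 0.786, 0.769 to 0.803). Of the 24 with at least 50 UMIs, 22 had a ratio under 1, with a range from 0.499 to 1.14, 0 were past 2-fold higher in CKO and 1 in control, with a median log2 ratio of -0.33 beside 0.04 over all genes, of which 10.4% were past 2-fold higher in CKO and 10.6% in control. That gene was *C1ql1*, which encodes a secreted C1q-like protein, at 125 and 62.2 CPM (ratio 0.499, 0.252 to 0.913). *Sox5*, a transcription factor gene that holds OPCs undifferentiated, stood at 2136 and 1140 CPM (0.534, 0.462 to 0.614), and the protocadherin gene *Pcdh15* at 5971 and 3797 CPM (0.636, 0.587 to 0.688). *Lhfpl3*, the most abundant gene of the list, stood at 10744 and 8901 CPM (0.829, 0.786 to 0.873). In nuclei with 0 or 1 granule marker the list had a ratio of 1.03 (0.999 to 1.05). There, 0 of 24 genes were past 2-fold, beside 5.99% of all genes higher in CKO and 16.9% in control. *Lhfpl3* stood at 1.16 (1.09 to 1.24) in these nuclei, *Pcdh15* at 0.885 (0.805 to 0.971) and *C1ql1* at 0.696 (0.302 to 1.42). *Pdgfra* stood at 1.08 (0.871 to 1.33) and *Sox5* still at 0.541 (0.441 to 0.660).

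*Olig1*, the partner of *Olig2* in oligodendrocyte maturation, had 40 UMIs in 35 control OPC nuclei and 3 UMIs in 3 CKO OPC nuclei, with a ratio of 0.187 (0.0370 to 0.587). It was not among the genes compared by ratio, since it had fewer than 50 UMIs. *Olig2*, its neighbor on chromosome 16, was not lower in CKO. In both libraries *Olig1* was higher in the nuclei labelled Glut_20, at 190 and 214 CPM, than in OPCs. Among the 21 labelled types OPCs ranked 2 for *Olig1* in control and 4 in CKO. In control the Glut_20 nuclei also had the highest *Olig2* level outside OPCs, at 85.4 CPM. What cells carry this label was not tested.

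Genes of committed precursors, the next stage of the lineage, had little difference as a list over all OPC nuclei. Their sum went from 10123 to 10898 CPM (ratio 1.08, 1.02 to 1.13). Of 19 genes with at least 50 UMIs, 1 was past 2-fold higher in CKO and 1 in control, beside 10.4% and 10.6% of all genes. The median log2 ratio was -0.01, beside 0.04 over all genes. The gene higher in CKO was *Cnksr3*, at 588 CPM in control Glut_5 neurons. The gene higher in control was *Zfp488*, a transcription factor gene that promotes differentiation, with 49 and 5 UMIs (0.254, 0.0791 to 0.635). *Frmd4a*, a gene of cell polarity, stood at 724 and 1288 CPM (1.78, 1.52 to 2.09), and *Bcas1*, a marker of newly formed oligodendrocytes, at 1982 and 1891 CPM (0.954, 0.848 to 1.07). Without the nuclei of 2 or more granule markers the list had a ratio of 1.30 (1.21 to 1.38). There, 2 of 15 genes were past 2-fold higher in CKO and 0 in control, beside 5.99% and 16.9% of all genes. The ratio of *Frmd4a* was 4.02 (3.21 to 5.03) in these nuclei, that of *Cnksr3* 18.4 (5.06 to 101) and that of *Zfp488* 0.448 (0.116 to 1.24).

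Myelin genes summed to 3392 CPM in control and 2935 CPM in CKO OPCs (ratio 0.865, 0.788 to 0.949). The summed ratio was 0.997 (0.874 to 1.13) in nuclei with 0 or 1 granule marker and 1.02 in nuclei with at least 2 of 4 markers. Of 10 genes with at least 50 UMIs, 0 were past 2-fold higher in CKO and 1 in control, beside 10.4% and 10.6% of all genes. The median log2 ratio was -0.04, beside 0.04 over all genes. The lower gene was *Edil3*, which encodes a secreted protein that binds integrins, at 931 and 273 CPM (0.293, 0.219 to 0.386), in 239 control and 33 CKO nuclei. *Mbp*, the gene of myelin basic protein, stood at 159 and 273 CPM (1.71, 1.2 to 2.43), and *Enpp2*, the gene of autotaxin, at 73.0 and 129 CPM (1.77, 1.04 to 2.98). In the nuclei with 0 or 1 granule marker the ratio of *Edil3* was 0.30 (0.197 to 0.440), that of *Mbp* 3.22 (1.90 to 5.40) and that of *Enpp2* 6.62 (2.67 to 17.3).

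At equal depth the share of nuclei with commitment genes was similar between the libraries, whereas the share with myelin markers was higher in CKO. UMIs of *Gpr17*, *Enpp6* or *Bmp4*, genes of cells leaving the precursor state, were found in 18.9% (15.0 to 23.4%) of control and 18.7% (12.6 to 26.2%) of CKO OPC nuclei at 500 UMIs each. Without thinning the shares were 31.0% and 25.5%. Glut_0 neurons had 0.05% and 0% when thinned, and oligodendrocytes 26.3% and 28.5%. UMIs of at least 1 myelin marker were found in 11.9% (8.69 to 15.7%) of control and 19.4% (13.2 to 27.0%) of CKO OPC nuclei when thinned. These intervals overlap, but overlap of separate intervals does not show that the shares are equal. Without thinning the shares were 19.8% and 29.3%, higher in CKO although its OPC nuclei had fewer UMIs (medians of 616.5 against 986). The difference itself was not tested.

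Dividing cells were present in both libraries. UMIs of at least 2 genes of the S and G2/M phase lists were found in 12.4% (9.18 to 16.3%) of control and 14.4% (9.02 to 21.3%) of CKO OPC nuclei at 500 UMIs each, and in 22.8% and 20.7% without thinning. The thinned shares were 0.34% and 0.21% in Glut_0 neurons, 1.53% and 1.68% in oligodendrocytes and 0.90% and 2.05% in astrocytes, but 10.7% and 27.3% in ECs. *Top2a*, the topoisomerase gene of dividing cells, was found in 4.52% (2.61 to 7.24%) and 6.47% (3.00 to 11.9%) of thinned OPC nuclei, in none of the thinned Glut_0 neurons, and in 4.13% and 10.8% of thinned ECs. No difference in these shares of OPCs was detectable at this depth. The summed level of the G2/M list was lower in CKO, at 1408 CPM in control and 694 CPM in CKO OPCs (ratio 0.493, 0.410 to 0.590), and that of the S phase list stood at 628 and 460 CPM (0.732, 0.577 to 0.922). The G2/M ratio was 0.284 in nuclei with at least 1000 UMIs, 0.660 when thinned, 0.635 with at least 2 of 4 markers, 0.602 with nuclei weighted equally and 0.710 (0.558 to 0.894) in nuclei with 0 or 1 granule marker, and the S phase ratio 0.964 when thinned. Of the G2/M genes 2 had at least 50 UMIs, *Top2a* (0.671, 0.394 to 1.10) and *Diaph3* (0.831, 0.569 to 1.19). Neither was past 2-fold, beside 10.4% of all genes higher in CKO and 10.6% in control.

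Growth factor and Notch signaling genes stood at 15537 CPM in control and 13436 CPM in CKO OPCs (ratio 0.865, 0.828 to 0.903). Of 13 with at least 50 UMIs, 0 were past 2-fold higher in CKO and 1 in control, beside 10.4% and 10.6% of all genes. The median log2 ratio was -0.01, beside 0.04 over all genes. *Etv5*, a transcription factor gene induced by fibroblast growth factor signaling, was the lower one, at 146 and 71.8 CPM (0.492, 0.263 to 0.864). In nuclei with 0 or 1 granule marker *Etv5* had a ratio of 0.688 (0.328 to 1.31). Of 9 genes of the list, 1 was past 2-fold higher in CKO there and 0 in control, beside 5.99% and 16.9% of all genes. *Erbb4*, the neuregulin receptor gene and most abundant of the list, stood at 6198 and 4894 CPM (0.790, 0.735 to 0.847). *Etv1*, at 1654 CPM in control Glut_5 neurons, stood at 296 and 536 CPM in OPCs (1.81, 1.41 to 2.33).

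For TGF-beta and BMP signaling, the pathway whose receptor is deleted in ECs, the list summed to 1742 and 1705 CPM in OPCs (ratio 0.979, 0.863 to 1.11). Of 8 genes with at least 50 UMIs, 0 were past 2-fold higher in CKO and 2 in control, beside 10.4% and 10.6% of all genes, with a median log2 ratio of -0.26 beside 0.04. Both lower genes act on latent TGF-beta outside the cell. *Ltbp1*, which ties the latent ligand to the matrix, stood at 236 CPM in control and 91.0 CPM in CKO OPCs (0.385, 0.224 to 0.627). *Itgav*, which encodes the alpha-v integrin, stood at 229 and 110 CPM (0.482, 0.294 to 0.758). *Itgb8*, whose protein pairs with alpha-v to release the active ligand, stood at 192 and 115 CPM (0.598, 0.366 to 0.942). *Bmp4* and *Acvr1*, a BMP ligand and a receptor gene, had ratios of 1.39 (0.760 to 2.46) and 1.35 (0.798 to 2.25). In the nuclei with 0 or 1 granule marker *Ltbp1* had a ratio of 0.463 (0.224 to 0.865) and *Itgav* 0.709 (0.390 to 1.21).

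Of 6 Wnt signaling genes with at least 50 UMIs, 0 were past 2-fold, beside 10.4% of all genes higher in CKO and 10.6% in control. Their median log2 ratio was 0.08, beside 0.04 over all genes. The list summed to 1377 and 1599 CPM (ratio 1.16, 1.02 to 1.32). *Tcf7l2*, the Wnt effector that times oligodendrocyte differentiation, stood at 430 and 426 CPM (0.991, 0.766 to 1.27). *Daam1* had the highest ratio of these 6 (1.59, 0.972 to 2.57) and the coreceptor gene *Lrp6* the lowest (0.649, 0.370 to 1.09). The list had a ratio of 1.42 (1.16 to 1.74) in nuclei with 0 or 1 granule marker, *Daam1* 5.10 (2.02 to 13.2), from 10 and 12 UMIs, and *Tcf7l2* 1.41 (1.01 to 1.93).

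Glutamate receptor genes higher in CKO included NMDA and metabotropic receptor genes. Of 26 with at least 50 UMIs, 6 were past 2-fold higher in CKO and 1 in control, beside 10.4% and 10.6% of all genes, the median log2 ratio was 0.21, and the sums were 23946 and 24780 CPM (ratio 1.03, 1.00 to 1.07). *Grin2a*, an NMDA receptor subunit gene, stood at 117 CPM in control and 378 CPM in CKO OPCs (3.23, 2.28 to 4.59) and at 1687 CPM in control Glut_5 neurons. The metabotropic receptor genes *Grm8*, *Grm3* and *Grm4* and the NMDA receptor subunit gene *Grin2b* were also higher in CKO, at ratios of 3.40, 2.68, 2.43 and 2.20. Of these, *Grm8* and *Grm3* stood at 9.41 and 1.25 CPM in control Glut_5 neurons, below their OPC levels. On the other side *Neto1*, an auxiliary subunit gene of kainate receptors, stood at 365 and 139 CPM (0.381, 0.248 to 0.564), and *Grik4*, a kainate receptor subunit gene, at 643 and 350 CPM (0.543, 0.416 to 0.702). In the nuclei with 0 or 1 granule marker 0 of 16 genes of the list were past 2-fold higher in CKO and 1 in control. The shares of all genes there were 5.99% and 16.9%. The summed ratio of the list was 1.01 (0.962 to 1.06), and *Grin2a* had 9 and 1 UMIs, a ratio of 0.473 (0.0108 to 3.41). *Grm8* had a ratio of 2.75 (1.17 to 6.23) there.

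Ion channel genes past 2-fold lay on both sides, as they did over all genes. Of 28 with at least 50 UMIs, 6 were higher in CKO and 4 in control, beside 10.4% and 10.6% of all genes, with a median log2 ratio of 0.09 and sums of 18774 and 21744 CPM (ratio 1.16, 1.12 to 1.2). *Cacna1a*, the P/Q-type calcium channel gene, stood at 453 CPM in control and 1053 CPM in CKO OPCs (2.32, 1.93 to 2.80) and at 3690 CPM in control Glut_5 neurons. *Kcnk1*, *Cacna1d*, *Cacnb4* and *Cacna1e* were also past 2-fold higher in CKO. The genes higher in control were *Kcnh5*, *Scn3a*, *Kcnip1* and *Scn1a*. *Kcnh5*, an ether-a-go-go potassium channel gene, had 87 UMIs in 65 control nuclei and 5 UMIs in 4 CKO nuclei (0.143, 0.0454 to 0.347). *Scn3a*, the gene of a sodium channel of early development, stood at 278 and 81.4 CPM (0.292, 0.166 to 0.484), and *Kcnip1*, a Kv4 channel partner gene, at 442 and 148 CPM (0.336, 0.223 to 0.490). In nuclei with 0 or 1 granule marker the sums of the list were 16040 and 16002 CPM. There, 3 of 17 genes were past 2-fold in each direction, beside 5.99% of all genes higher in CKO and 16.9% in control. *Scn3a* had a ratio of 0.227 (0.0896 to 0.482) in these nuclei. *Cacna1a* had a ratio of 4.76 (2.68 to 8.52) there, *Cacna1d* 3.42 (2.30 to 5.06) and *Kcnh5* 0.0545 (0.00136 to 0.313).

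Adhesion and matrix genes, the most abundant of these lists, summed to 100574 CPM in control and 85428 CPM in CKO OPCs (ratio 0.849, 0.835 to 0.864). Of 39 with at least 50 UMIs, 29 had a ratio under 1. Past 2-fold, 4 were higher in CKO and 1 in control, beside 10.4% and 10.6% of all genes. The median log2 ratio was -0.27, beside 0.04 over all genes. *Epha5*, an ephrin receptor gene of axon guidance, had 212 UMIs in 147 control nuclei and 16 UMIs in 12 CKO nuclei, or 407 and 76.6 CPM (0.188, 0.106 to 0.313). *Lrrtm4*, a gene for a synapse organizer, stood at 5598 and 3352 CPM (0.599, 0.551 to 0.650), and *Robo1*, a Slit receptor gene, at 1360 and 814 CPM (0.599, 0.503 to 0.709). The 4 genes higher in CKO were *Cntnap4* (2.49), *Epha3* (2.36), *Robo2* (2.20) and *Cntnap2* (2.14), and all 4 stood above their OPC levels in control Glut_5 neurons. In nuclei with 0 or 1 granule marker *Epha5* had a ratio of 0.0755 (0.0154 to 0.224) and *Lrrtm4* 0.696 (0.625 to 0.775). The 4 genes higher in CKO stayed past 2-fold there, *Cntnap2* at 2.62 (1.72 to 3.94) and *Robo2* (2.62), *Epha3* (4.25) and *Cntnap4* (2.84) with 2 to 13 UMIs per library and intervals that span 1.

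Smaller lists held few genes with enough UMIs, and their counts stand beside 10.4% of all genes past 2-fold higher in CKO and 10.6% in control. For hypoxia and glycolysis 1 of 2 genes was past 2-fold, *Vegfa*, the angiogenic growth factor gene, at 51.9 CPM in control and 124 CPM in CKO OPCs (ratio 2.40, 1.35 to 4.27), from 27 and 26 UMIs. Among nuclei with at least 1000 UMIs its ratio was 0.850, and in those with 0 or 1 granule marker it was 3.81 (1.86 to 7.73). *Vegfa* had a ratio of 0.609 in all other brain nuclei. In regional patterning 2 of 5 genes were past 2-fold higher in CKO, *Pax6* (2.74, 1.75 to 4.28) and *Zic1* (2.57, 1.54 to 4.28), both also on the granule list, and 1 in control, *Meis2* (0.493, 0.335 to 0.708). Of the nuclear noncoding RNAs 1 of 4 was past 2-fold, the imprinted *Meg3*, at 857 and 2279 CPM (2.66, 2.33 to 3.03), and *Malat1*, the most abundant RNA of the nuclei, stood at 42243 and 47649 CPM (1.13, 1.10 to 1.16). *Meg3* stood at 3245 CPM in control Glut_5 neurons. Genes of cholesterol synthesis, which precursors need to build myelin membrane, had no member with 50 UMIs and summed to 209 and 378 CPM (1.81, 1.34 to 2.44), with a ratio of 4.42 (2.48 to 7.88) in nuclei with 0 or 1 granule marker.

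Genes of highest level in OPC nuclei included *Malat1*, *Lsamp*, *Lhfpl3*, *Opcml*, *Pcdh9*, *Lrrc4c*, *Nlgn1*, *Kcnd2* and *Csmd1*. Besides *Malat1* they encode adhesion and synaptic membrane proteins and a potassium channel, and none was past 2-fold. Their ratios ran from 0.760 (0.713 to 0.810) for *Csmd1* to 1.13 for *Malat1*.

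Interferon response and antigen presentation genes had 40 UMIs in control and 10 in CKO OPCs (76.8 and 47.9 CPM; ratio 0.623, 0.278 to 1.27), against 324 and 481 CPM in all other brain nuclei, and a difference in OPCs was not detectable at this depth. Several gene groups were nearly without UMIs in OPCs of both libraries. Ribosomal protein genes had 3 and 0 UMIs, and were also low in oligodendrocytes (7.74 and 1.37 CPM) and Glut_0 neurons (5.08 and 2.17 CPM), whereas ECs had 16012 and 16611 CPM. Mitochondrial transcripts stood at 30.7 and 33.5 CPM in OPCs, and at 3382 and 3434 CPM in ECs but 2.58 and 8.24 CPM in oligodendrocytes. Immediate early and stress genes stood at 15.4 and 14.4 CPM in OPCs, at 102 and 100 CPM in oligodendrocytes and at 65.3 and 129 CPM in astrocytes. Of the genes that would give at least 10 UMIs in OPCs at their level in the other nuclei, 1061 of 7117 (14.9%) had 0 in control OPCs and 447 of 3883 (11.5%) in CKO OPCs. In ECs such genes were 5.28% and 5.57%, and in oligodendrocytes 22.5% and 26.4%.

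Markers of other cell classes were present at low levels in OPC nuclei. The 12 neuron markers all had UMIs in OPCs and summed to 2105 CPM in control and 4175 CPM in CKO (ratio 1.98, 1.81 to 2.17). *Rbfox3*, which encodes the neuronal nuclear antigen NeuN, stood at 371 and 962 CPM, and *Nrgn* was at 0 in control. The 12 astrocyte markers summed to 701 and 1508 CPM (2.15, 1.84 to 2.51), with *Slc4a4* as the most abundant at 305 and 709 CPM and with *Gjb6* and *Acsbg1* at 0 in CKO. *Slc4a4* also stood at 2394 CPM in control Glut_5 neurons, whereas the glutamate transporter gene *Slc1a2* of astrocytes, at 7.53 CPM there, stood at 133 and 412 CPM in OPCs (3.11, 2.24 to 4.33). In nuclei with 0 or 1 granule marker the neuron markers summed to 302 and 714 CPM and the astrocyte markers to 330 and 1151 CPM, and *Slc1a2* had a ratio of 5.27 (3.01 to 9.32).

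The remaining classes had smaller sums. Of 10 oligodendrocyte markers 8 had UMIs, with sums of 390 and 493 CPM, *Mbp* as the most abundant and *Mobp* at 0 in CKO. In nuclei with 0 or 1 granule marker these sums were 289 and 727 CPM (ratio 2.52, 1.77 to 3.55). Of 12 microglia markers 9 had UMIs, with sums of 67.2 and 144 CPM, *Apbb1ip* as the most abundant and *Tmem119* at 0 in both. Their ratio in nuclei with 0 or 1 granule marker was 2.84 (1.25 to 6.22), from 18 and 12 UMIs. Endothelial markers, 9 of 12 with UMIs, summed to 177 and 57.5 CPM, with *Mecom* as the most abundant and 8 of 12 at 0 in CKO, *Cdh5* among them. Their ratio in nuclei with 0 or 1 granule marker was 0.448 (0.116 to 1.24). Pericyte and smooth muscle markers, a list that shares *Cspg4* with OPCs, had UMIs for 9 of 12 and summed to 901 and 1058 CPM, with *Ebf1* as the most abundant of the others. Fibroblast markers, 7 of 12 with UMIs, summed to 1122 and 881 CPM, of which *Pdgfra* made up 1064 and 790 CPM. Choroid plexus and ependyma markers, 5 of 10 with UMIs, summed to 269 and 95.8 CPM, with *Ttr* at 129 UMIs in 5 control nuclei. This direction turned with at least 2 of 4 OPC markers (ratio 10.5), without nuclei led by another class (2.40) and without nuclei of at least 2 granule markers (5.32). The part of these other classes in the differences between the libraries was not tested.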

How the data were processed

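The authors deposited UMI counts, whole numbers for each gene in each nucleus, made with PIPseeker (GRCm39 in the paper, mm10 in the labels), CellBender against background, SOLO against doublets and removal of mixed nuclei by hand. The cell type of each nucleus is the authors' deposited label, and its library is read from the deposited barcode suffix. UMIs were summed over OPC nuclei per library (pandas 2.3.3 and numpy 2.4.6 in Python 3.11.15; intervals from scipy 1.17.1; figures from matplotlib 3.10.9). List medians used 0.5 added UMIs. Thinning was 1 seeded random draw.

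Named genes are the 15 of highest and 15 of lowest ratio with at least 50 UMIs and UMIs in at least 10 nuclei of the higher library, the 4 markers, *Tgfbr1*, *Tgfbr2*, *Xist* and Y chromosome genes, up to 3 genes at each end and the most abundant gene of each list, and the 10 of highest CPM. Any other gene named, such as *Olig1* and *Sox6*, was chosen after its values were seen. A few genes that this rule takes are withheld and left out. Members and lists were chosen with earlier results of these data known. Positions are from GENCODE on GRCm39. Alternatives changed UMI limits, the nuclei kept, depth, weighting and scaling (TMM, edgeR 4.0.16 in R 4.3.3). Retina libraries and display coordinates were not used.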

Additional observations from a re-analysis of the deposited data

Results flagged for a closer look

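Among the genes compared, 9 had a ratio past 2-fold higher in CKO in OPC nuclei and past 2-fold higher in control in all other brain nuclei, and 4 of these are described here. *Fat2*, a protocadherin gene of cerebellar granule neurons, had a ratio of 3.25 in OPCs and 0.298 in the other nuclei. *Il16* had a ratio of 5.20 in OPCs and 0.310 in the other nuclei. *Pax6*, a transcription factor gene of granule neuron precursors among other cells, had a ratio of 2.74 in OPCs and 0.389 in the other nuclei. *Gabra6* had a ratio of 2.28 in OPCs and 0.310 in the other nuclei. Within Glut_5 neurons, which were 1858 of the control and 251 of the CKO nuclei, the ratios of *Fat2*, *Il16*, *Pax6* and *Gabra6* were 1.02, 1.08, 1.05 and 0.892, and within astrocytes 1.33, 0.898, 1.39 and 2.11. In OPC nuclei with 0 or 1 granule marker *Fat2* had 0 UMIs in both libraries. The difference between OPCs and the other nuclei was not tested, since each genotype has 1 library.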

How the results depend on the processing

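No paired analysis was possible because each genotype has 1 library, and library, sex and genotype cannot be told apart. Depth limits most genes: 1996 of 13322 reached 50 UMIs. The count of genes higher in CKO, 208 (10.4%), was 166 to 217 with deep nuclei, without the 10 deepest nuclei, without nuclei where another class exceeds OPC markers, with TMM and with a reduced total. It was 531 (14.2%) at 20 UMIs, 90 (8.17%) at 100 UMIs, 72 (6.64%) with at least 2 of 4 markers, 91 (12.3%) in nuclei thinned to 500 UMIs and 378 (18.9%) with nuclei weighted equally. It was 60 (5.99%) without nuclei of at least 2 granule markers, chosen after seeing the data. The count higher in control, 212 (10.6%), was 535 (14.3%) at 20 UMIs, 99 (8.99%) at 100 UMIs, 131 (12.1%) with at least 2 of 4 markers, 103 (14%) when thinned, and 169 to 314 otherwise. The OPC shares of 2.40% in control and 1.42% in CKO were 1.85% and 0.650% among nuclei with at least 1000 UMIs, 2.73% and 1.07% for nuclei of any label with at least 2 of 4 markers, and 2.82% and 1.77% without ECs in the total. The ratio of OPC identity, 0.786, was 0.527 in nuclei with at least 1000 UMIs, 0.879 without the 10 deepest, 0.925 with at least 2 of 4 markers, 0.884 without nuclei led by another class, 1.03 without granule markers, 0.753 thinned, 0.769 with TMM and 0.927 weighted equally. Choroid plexus markers, lower in CKO, were higher with at least 2 of 4 markers (ratio 10.5), without nuclei led by another class (2.40) and without granule markers (5.32), and *Ttr* likewise in the last 2 (2.10 and 9.92). *Grin2a* had a ratio of 0.473 without granule markers and *Vegfa* 0.850 in nuclei with at least 1000 UMIs. By construction more genes enter at 20 UMIs, fewer at 100 UMIs and fewer nuclei when thinned; for the other changes the cause was not tested. Of 1449 comparisons of a value with its alternatives, 1108 stayed within the counting interval or, for counts, within 1.5 times. For the main values (both gene counts, the OPC shares and the OPC identity ratio), however, 13 stayed and 24 moved. Of the other values 1095 stayed, 310 moved and 7 reversed direction, and many of these rest on few UMIs with wide intervals.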
